A study of Mus musculus with 30 samples.

Results

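The genes described here carry out homologous recombination and the Fanconi anemia pathway of DNA repair: Brca1, Brca2, Rad54l, Fancd2, Fanca, Blm, Exo1, Xrcc2 and Mre11a. They were taken as every array probe whose gene symbol equals one of these 9 names, of 18097 symbols on the array. There were 17 such probes for 8 of the 9 genes, and none of the probes carried the symbol Fanca. Of the 17, 14 were detected on enough arrays to be tested (at least 3 arrays with a detection p below 0.05), and 11 of these were detected on all 30 arrays. The other 3 probes, 1 for Blm and 2 for Exo1, were detected on none. Where a gene had several tested probes, the brightest stands for it below and the others are named as the second and the third probe.

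The RNA came from mouse embryonic stem cells (ESCs) of the line Ainv15, which carries the Dox-responsive transactivator rtTA. Every clone was a rescue clone. In those named for a targeted gene, the cells' own mRNA of that gene is depleted by an shRNA. A version immune to that shRNA is expressed while doxycycline (Dox, at 1 μg/ml) is present. The clones were Bub1b_R, Chek1_R, Ppm1g_R and Ppp2r1b_R, named for the targeted gene, and the control clone Ctrl_R, whose strain is labelled 129P2/OlaHsd. Each was sampled with Dox (+Dox) and after 5 days without it (−Dox), with 3 Illumina mouse WG-8 arrays per condition and 30 arrays in all. Cells were maintained on mouse embryonic fibroblast feeders with LIF and were grown without feeders for the arrays. The labels name a rescue clone per gene and do not say whether its arrays came from 1 or several of the independent clones that were established, so that differences between clones and the effect of the targeted gene cannot be told apart. The labels call the arrays triplicates, and a general statement in the methods says that experiments were repeated. Neither says whether the 3 arrays of a condition came from separate cultures, and p-values then measure the spread between arrays, which may be technical.

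Values are log2 intensities after normalization across the 30 arrays, and a change is a difference of these log2 levels. Differences were tested with limma, with Benjamini and Hochberg's adjustment over all 15151 tested probes. A probe was called changed where it differed by 1.5-fold or more and its adjusted p was under 0.05. Between 11733 and 13685 probes were detected per array, and the number of arrays limits the precision. The arrays fell into sets. On the 12 arrays of Bub1b_R and Ctrl_R the dimmest detected probe had a signal of 12.9 to 20.9, while on the 18 arrays of the other clones that signal was 27.8 to 58.1. For Chek1_R, Ppm1g_R and Ppp2r1b_R against Ctrl_R, array set and clone therefore cannot be told apart. The Ctrl_R arrays also carry sample numbers from a separate range than those of all 4 targeted clones. Any difference that goes with this cannot be told apart from the clone for Bub1b_R either. The ESC markers Pou5f1, Sox2 and Nanog were detected on all 30 arrays. Of the targeted genes, Ppm1g fell in its own clone on Dox withdrawal, by 1.25 on the log2 scale. Bub1b changed by −0.14 (adjusted p = 0.217) and Ppp2r1b by +0.20 (adjusted p = 0.365) in their own clones. Chek1 was detected on none of the +Dox arrays labelled Chek1_R and on all 3 of the −Dox arrays, a rise on withdrawal (limma adjusted p = 0.0011). The reason for this rise was not tested, and these arrays are referred to by their label. Against Ctrl_R, with both without Dox, the targeted gene was called lower in its own clone for Bub1b (−0.67), Chek1 (−1.07) and Ppm1g (−1.74), while Ppp2r1b was at −0.25 (adjusted p = 0.158). The 4 clones are called the targeted clones below, since a fall of the gene itself on withdrawal was called for Ppm1g only. Whether these probes read the rescue copy as well as the endogenous mRNA was not tested.

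Homologous recombination copies the intact sister chromatid to mend a broken chromosome, and in ESCs, which replicate their DNA rapidly, it is a major route of break repair. MRE11A (in a complex with RAD50 and NBN), EXO1 and BLM resect the broken ends. BRCA1 acts early and with partners brings in BRCA2, which acts on the resected single strand. XRCC2 acts with other mediators of recombination, and RAD54L is a motor protein that aids strand exchange. The Fanconi anemia core complex, of which FANCA is a subunit, directs the monoubiquitination of FANCD2 at DNA crosslinks. BLM is a helicase that also dissolves joined recombination intermediates.

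RefSeq promoter windows (GRCm38.p6, 250 bases before to 50 after the start site) were at hand for 6 of the 9 genes, Brca1, Brca2, Rad54l, Fanca, Blm and Mre11a. The CCAAT box, CCAAT on either strand, lay in 5 of these 6 windows and in 41.1% of the 27025 genes with a window. The E2F site TTTCCCGC, on either strand, lay in the Brca2 window and in 1.24% of all genes. Neither the other E2F form TTTGGCGC (0.585% of all genes) nor the cell cycle homology region TTTGAA (20.2%) lay in any of the 6 windows. A match is a description of the letters and no measure of binding. The CCAAT sites of the genes with array values are printed to show what this shared feature looks like, and the E2F match of Brca2 beside them, 5′ to 3′ on the gene's strand, with the matched letters in capitals. Where a window held several matches, the one nearest the start site is shown.
Brca1: gactaggtagCCAATcgcaaaccca
Brca2: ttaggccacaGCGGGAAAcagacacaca
Rad54l: ctgaacgcagCCAATaggggactgt
Blm: cagggattacCCAATcagaatcatc
Mre11a: cattctgtagCCAATgagaatctag
The first capital is at position −86 from the start site in Brca1 (chr11:101552027-101552051, minus strand), −168 in Brca2 (chr5:150522443-150522470, plus strand), −50 in Rad54l (chr4:116123726-116123750, minus strand), −161 in Blm (chr7:80535145-80535169, minus strand) and −38 in Mre11a (chr9:14784606-14784630, plus strand). The Brca2 match is the reverse complement of TTTCCCGC.

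The first question was whether the repair genes changed when Dox was withdrawn and the targeted gene lost its rescue. They moved little. In the mean of the 4 targeted clones, the brightest probe of each of the 8 measured genes had a negative change. These changes ran from −0.26 for Fancd2 to −0.03 for Brca1, and all 8 of the 95% intervals lay within 1.5-fold. Dimmer probes of Brca2, Blm, Mre11a and Xrcc2 rose in some targeted clones, as given below. Fancd2 and Rad54l fell at an adjusted p under 0.05, and none of the 8 was called with the fold limit. Of all tested probes, 46.4% passed that adjusted p alone in this pooled comparison and 3.56% passed with the fold limit. The median change of the 8 genes was −0.09, against −0.01 over all tested probes. In bulk RNA, fewer cells that express a gene and less RNA per cell cannot be told apart.

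**Figure D1:**
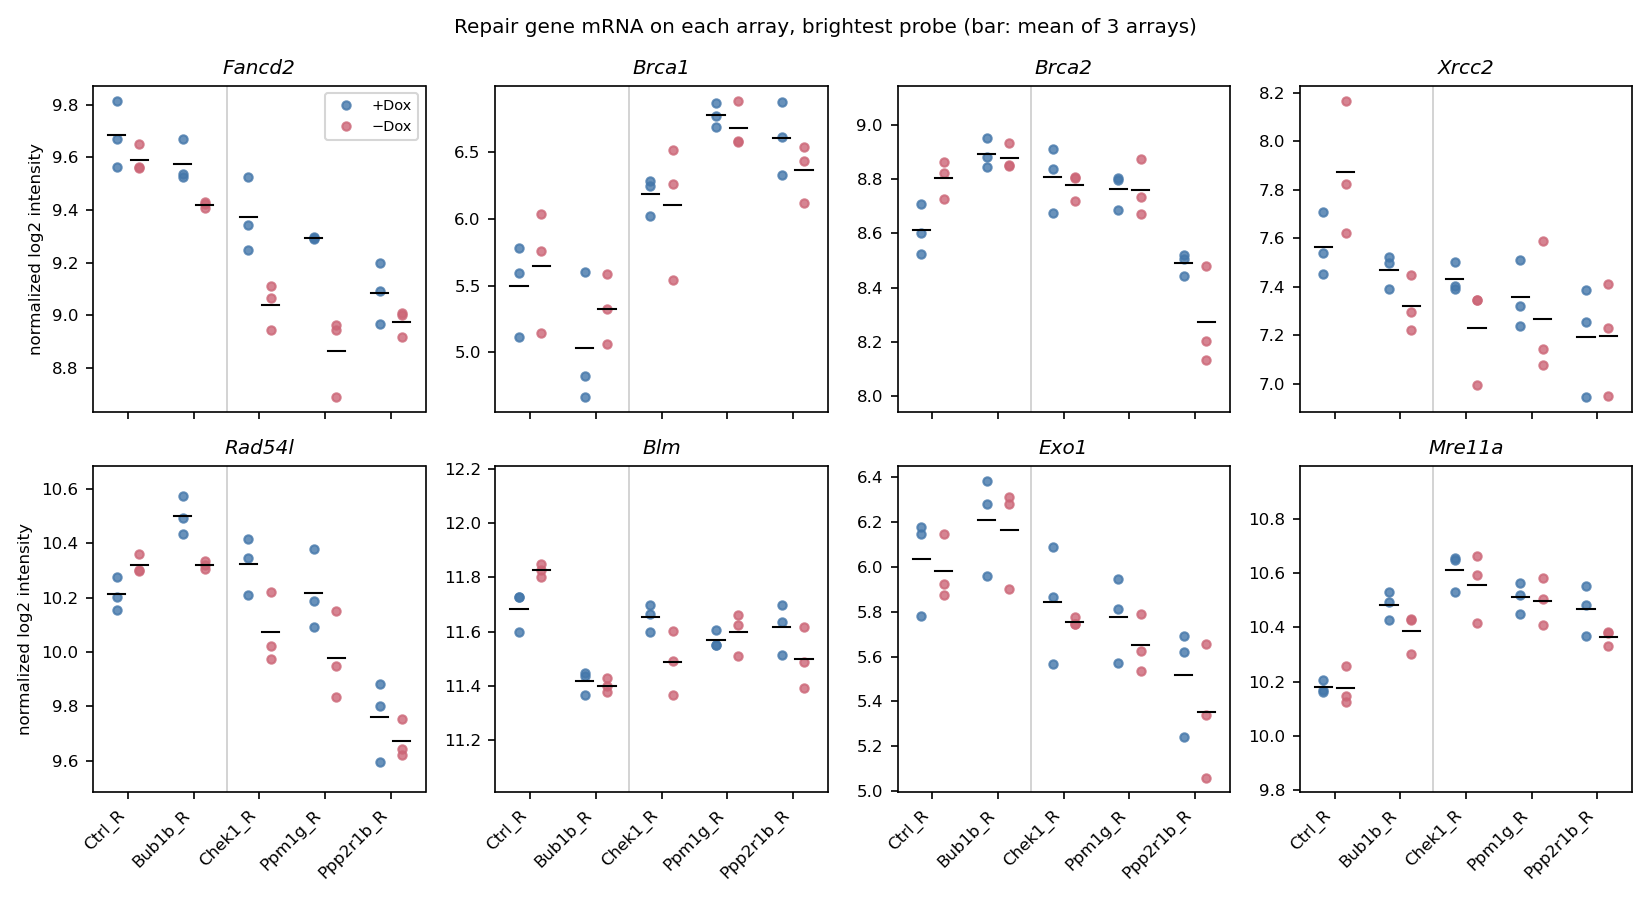
Normalized log2 intensity of the brightest probe of each of the 8 measured repair genes on every array, by clone, with Dox in blue and without Dox in red. Bars are means of 3 arrays and the grey line parts the array sets. Fancd2 has its lowest mean, 8.86, in Ppm1g_R without Dox, Rad54l has its lowest, 9.67, in Ppp2r1b_R without Dox, and Brca1 lies lowest on the arrays of Bub1b_R and Ctrl_R.

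Fancd2, the central substrate of the Fanconi pathway, was at 9.52, 9.34 and 9.25 on the +Dox arrays labelled Chek1_R and at 9.11, 8.94 and 9.06 on the −Dox arrays. In Ppm1g_R it was at 9.29, 9.30 and 9.29 with Dox and at 8.94, 8.96 and 8.69 without. Every −Dox array lay below every +Dox array in both clones. The change was −0.33 ± 0.08 (SE, n = 3 arrays per condition, limma adjusted p = 0.00265) on the arrays labelled Chek1_R and −0.43 ± 0.08 (limma adjusted p = 0.000372) in Ppm1g_R, which is 1.26-fold and 1.35-fold. Leaving out any 1 array kept both past the adjusted p, at −0.39 to −0.26 and −0.48 to −0.34. Scaling each array to its median took the Chek1_R change to −0.20 (adjusted p = 0.135). In Bub1b_R Fancd2 was at 9.53, 9.53 and 9.67 with Dox and at 9.42, 9.41 and 9.43 without, again with no overlap, and the change of −0.16 did not pass (adjusted p = 0.178). In Ppp2r1b_R the change was −0.11 (adjusted p = 0.354) and in Ctrl_R −0.09 (adjusted p = 0.556), each with overlapping arrays. An F-test for a difference of the change among the 4 targeted clones gave an adjusted p of 0.108. Pooled over the 4 clones, the change was −0.26 ± 0.04 (SE, limma adjusted p = 1.2e-05), and −0.23 (adjusted p = 0.000317) without the arrays labelled Chek1_R.

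Rad54l was at 10.42, 10.35 and 10.21 on the +Dox arrays labelled Chek1_R and at 10.02, 9.97 and 10.22 on the −Dox arrays, of which replicate 3 overlapped the +Dox range. In Ppm1g_R it was at 10.19, 10.38 and 10.09 with Dox and at 10.15, 9.84 and 9.95 without, with 1 array overlapping. In Bub1b_R it was at 10.44, 10.50 and 10.57 with Dox and at 10.30, 10.32 and 10.33 without, and these did not overlap. The changes were −0.25 (adjusted p = 0.0314), −0.24 (adjusted p = 0.0517) and −0.18 (adjusted p = 0.148), so that only the one labelled Chek1_R passed. Median scaling took it to −0.13 (adjusted p = 0.389). The call was also lost without Chek1_R +Dox replicate 1 (adjusted p = 0.136) or 2 (0.082), and without Chek1_R −Dox replicate 1 (0.099) or 2 (0.142). In Ppp2r1b_R Rad54l was at 9.88, 9.80 and 9.59 with Dox and at 9.62, 9.64 and 9.75 without, the lowest means of all conditions, with arrays that overlapped between +Dox and −Dox (−0.09, adjusted p = 0.518). In Ctrl_R the −Dox arrays, at 10.30, 10.36 and 10.30, all lay above the +Dox arrays, at 10.15, 10.28 and 10.20, and the change was +0.11 (adjusted p = 0.521). The pooled change was −0.19 ± 0.04 (SE, limma adjusted p = 0.000978), and −0.17 (adjusted p = 0.00998) without the arrays labelled Chek1_R.

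Brca2 fell on withdrawal in Ppp2r1b_R. Its brightest probe was at 8.50, 8.44 and 8.52 with Dox and at 8.14, 8.48 and 8.20 without, where the −Dox arrays were lower in 8 of 9 array pairs. Its second probe was at 7.56, 7.23 and 7.55 with Dox and at 6.89, 7.11 and 7.23 without. The changes were −0.22 ± 0.08 (SE, limma adjusted p = 0.0478) and −0.37 ± 0.12 (SE, limma adjusted p = 0.0274). The brightest probe's call was lost on leaving out any of 5 of the 6 arrays, with adjusted p from 0.0599 to 0.231, and under median scaling (−0.18, adjusted p = 0.235). In the other 3 targeted clones the brightest probe's changes were −0.01, −0.03 and −0.00, with all intervals within 1.5-fold, and in Ctrl_R +0.19 (adjusted p = 0.154). The second probe's mean rose in those 3 clones and in Ctrl_R. It went from 7.69 to 7.89 in Bub1b_R and from 7.45 to 7.57 on the arrays labelled Chek1_R. In Ppm1g_R it went from 7.29 to 7.62 and in Ctrl_R from 7.57 to 7.78. The F-test among the 4 targeted clones gave an adjusted p of 0.367 for the brightest probe and 0.0183 for the second, against 24.0% of all probes that passed it.

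The remaining genes did not pass in any clone by their brightest probe. Blm changed by −0.17 (adjusted p = 0.0614) on the arrays labelled Chek1_R and by −0.12 to 0.03 in the other targeted clones. Mre11a changed by −0.10 to −0.01, Exo1 by −0.16 to −0.04, Xrcc2 by −0.20 to 0.00 and Brca1 by −0.24 to 0.29. Brca1 was close to background on many arrays and had the widest intervals, which reached past 1.5-fold in all 4 targeted clones. For the pooled change the intervals were −0.14 to 0.00 for both Blm and Mre11a, −0.15 to 0.02 for Brca2, −0.26 to 0.04 for Xrcc2, −0.27 to 0.06 for Exo1 and −0.29 to 0.23 for Brca1. The second Mre11a probe fell by 0.11 in the pool (adjusted p = 0.0391). The mean of the third fell in Bub1b_R (6.68 to 6.58). It rose in Chek1_R (6.44 to 6.48), Ppm1g_R (6.45 to 6.51) and Ppp2r1b_R (5.95 to 6.16). The mean of the second Blm probe fell in Bub1b_R (11.23 to 11.22) and Chek1_R (11.13 to 10.98). It rose in Ppm1g_R (10.99 to 11.13) and Ppp2r1b_R (11.20 to 11.27). The mean of the second Xrcc2 probe rose in Bub1b_R (7.36 to 7.41) and Chek1_R (7.25 to 7.27). It fell in Ppm1g_R (7.21 to 7.20) and Ppp2r1b_R (7.20 to 7.14).

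Clone by clone, the 8 genes thus gave 0 calls with the fold limit in each of the 5 clones. At an adjusted p alone, 2 genes were lower on the arrays labelled Chek1_R, 1 in Ppm1g_R, 1 in Ppp2r1b_R, and 0 in Bub1b_R and Ctrl_R. At an unadjusted p under 0.05 the limma counts were 0 in Bub1b_R, 3 in Chek1_R, 2 in Ppm1g_R, 1 in Ppp2r1b_R and 3 in Ctrl_R. Among all tested probes, the adjusted p alone was passed by 24.4% in Bub1b_R, 30.9% in Chek1_R, 23.4% in Ppm1g_R, 25.3% in Ppp2r1b_R and 7.55% in Ctrl_R. Counts over 8 genes are too small to set the repair genes apart from this background. With the fold limit the background was 5.60%, 9.27%, 4.37%, 4.82% and 1.10% in the same order. The medians of the 8 genes were −0.07, −0.13, −0.09 and −0.11 in the targeted clones and 0.12 in Ctrl_R.

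**Figure D2:**
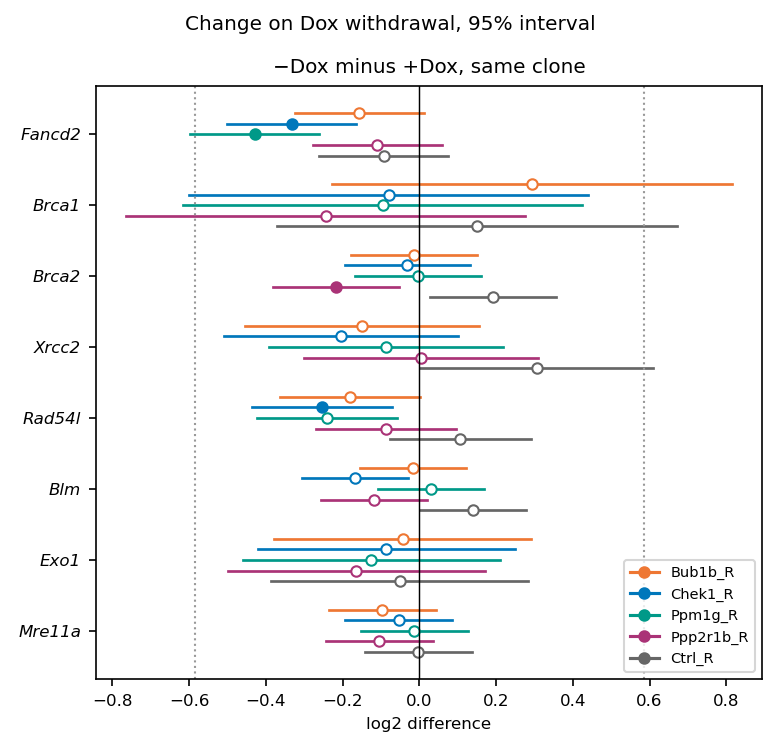
Change on Dox withdrawal (log2, −Dox minus +Dox) of each repair gene in the 4 targeted clones and Ctrl_R, with 95% intervals from limma. Filled points passed an adjusted p under 0.05 and dotted lines mark 1.5-fold. The filled points are Fancd2 in the clones labelled Chek1_R and Ppm1g_R, Rad54l on the arrays labelled Chek1_R and Brca2 in Ppp2r1b_R, all of them inside the dotted lines.

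Dox withdrawal itself was controlled for by subtracting the change in Ctrl_R. No gene passed with the fold limit, at a background of 5.15% of probes for Bub1b_R, 8.99% for Chek1_R, 5.27% for Ppm1g_R and 3.28% for Ppp2r1b_R. At an adjusted p alone, 2 of the 8 passed for the arrays labelled Chek1_R, 1 for Ppp2r1b_R, and 0 for Bub1b_R and Ppm1g_R, beside 12.2%, 18.3%, 12.0% and 8.28% of all probes for Bub1b_R, Chek1_R, Ppm1g_R and Ppp2r1b_R. At an unadjusted p under 0.05 the counts were 2, 4, 2 and 2 of 8. Rad54l fell further on the arrays labelled Chek1_R than in Ctrl_R, by 0.36 ± 0.12 on the log2 scale (SE, limma adjusted p = 0.0468). Blm fell further there as well, by 0.31 ± 0.09 for its brightest probe (limma adjusted p = 0.0242) and 0.32 ± 0.09 for its second (limma adjusted p = 0.0136). Brca2 fell further in Ppp2r1b_R, by 0.41 ± 0.11 (limma adjusted p = 0.0251) and 0.58 ± 0.17 (limma adjusted p = 0.0377) for its probes. Part of each difference lay in Ctrl_R, in which Rad54l, Blm and Brca2 were higher without Dox in 9 of 9 array pairs. On withdrawal the Rad54l mean also fell in Ppm1g_R (10.22 to 9.98), Bub1b_R (10.50 to 10.32) and Ppp2r1b_R (9.76 to 9.67). That of Blm fell in Ppp2r1b_R (11.62 to 11.50) and Bub1b_R (11.42 to 11.40) and rose in Ppm1g_R (11.57 to 11.60). The limma F-test among the 4 targeted clones did not pass for Rad54l (adjusted p = 0.681) or the brightest (0.315) and second (0.0814) Blm probes. Leaving out 1 of the 12 arrays in turn ended the call for Rad54l in 9 cases, for Blm in 4 and for Brca2 in 5. Median scaling ended all 3, at −0.27 for Rad54l (adjusted p = 0.278), −0.20 for Blm (0.511) and −0.40 for Brca2 (0.122). Fancd2 in Ppm1g_R was at −0.34 (adjusted p = 0.0577). All these genes moved in cells whose early differentiation markers also moved. The summed level of T, Mixl1 and Fgf5 was 6.65 to 6.90 with and 7.06 to 7.18 without Dox in Ctrl_R. It was 9.90 to 10.03 and 12.05 to 12.11 in Bub1b_R, 7.32 to 7.45 and 11.10 to 11.26 on the arrays labelled Chek1_R, 9.58 to 9.61 and 10.61 to 10.75 in Ppm1g_R, and 8.44 to 8.62 and 9.97 to 10.21 in Ppp2r1b_R. In the pool all 3 of these markers were called higher and all 3 ESC markers were lower at an adjusted p under 0.05. Of 7 tested feeder markers, 5 were higher and 2 lower at that p. The part of these markers in the result was not tested.

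The second comparison set each targeted clone without Dox beside Ctrl_R without Dox. Here several repair genes were lower in the targeted clones, and some passed the fold limit. Xrcc2 and Blm were lower in all 4 targeted clones, Fancd2 in the clones labelled Chek1_R, Ppm1g_R and Ppp2r1b_R, and Rad54l in the same 3, all at an adjusted p under 0.05. Brca1 was higher in Ppm1g_R and Ppp2r1b_R, and Mre11a was higher in all 4 by its brightest probe. With the fold limit, 0 genes were called in Bub1b_R, 1 lower in Chek1_R, 1 higher and 2 lower in Ppm1g_R, and 1 higher and 4 lower in Ppp2r1b_R. The background was 22.6%, 28.8%, 33.5% and 33.7% of all probes in that order. The share of the repair genes was near or below it except in Ppp2r1b_R, with 5 of 8, and counts over 8 genes are too small to set them apart from it. At an adjusted p alone, 1 gene was higher and 2 lower in Bub1b_R, 1 and 4 in Chek1_R, 2 and 4 in Ppm1g_R, and 2 and 6 in Ppp2r1b_R, against 52.9%, 60.6%, 64.8% and 65.4% of all probes. For Bub1b_R, 4 of 8 passed an unadjusted p under 0.05. All 4 comparisons share the Ctrl_R arrays.

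**Figure D3:**
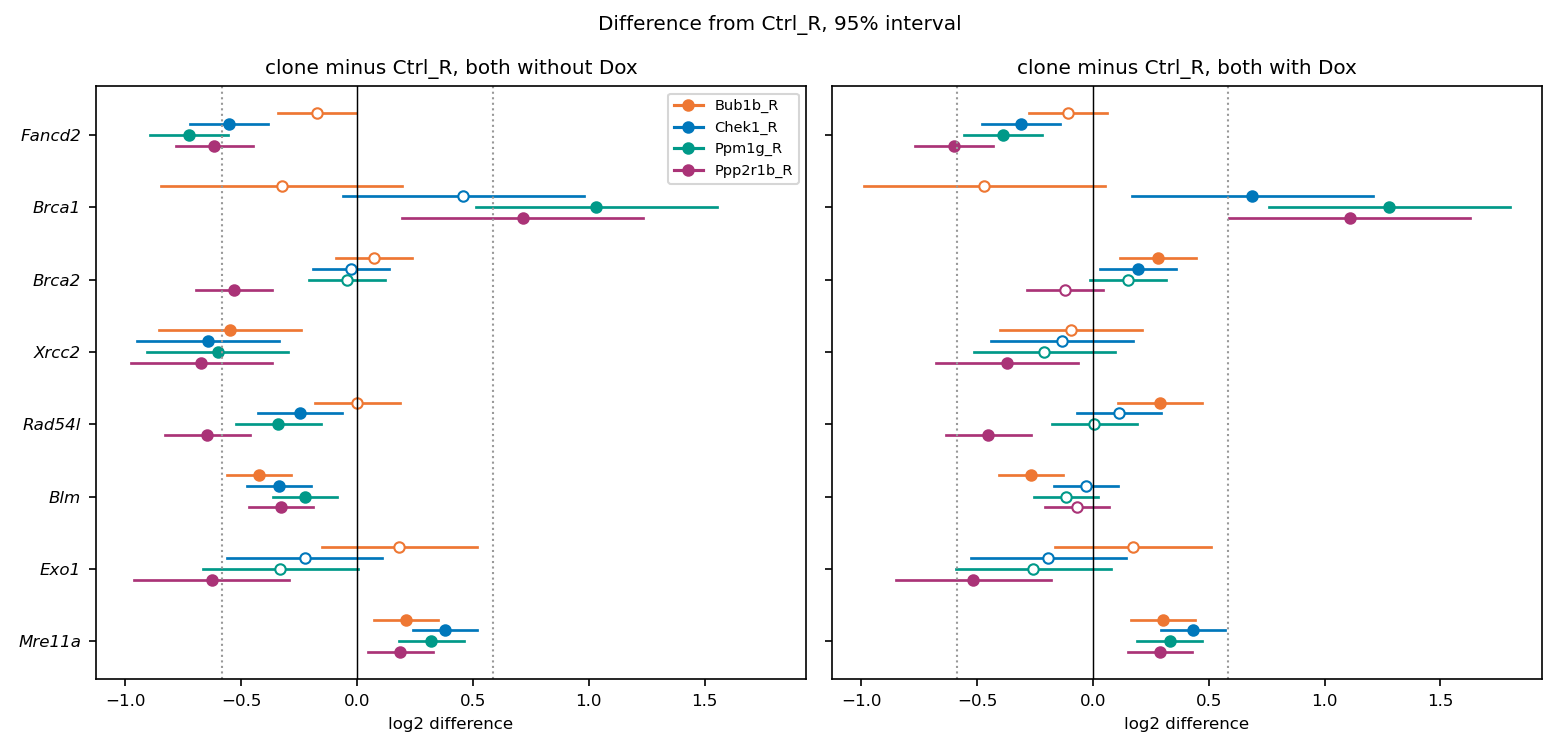
Difference of each targeted clone from Ctrl_R (log2) for the 8 repair genes, without Dox on the left and with Dox on the right, with 95% intervals from limma. Filled points passed an adjusted p under 0.05 and dotted lines mark 1.5-fold. Brca1 stands highest, in Ppm1g_R, and Fancd2 lies below zero for the clones labelled Chek1_R, Ppm1g_R and Ppp2r1b_R in both panels.

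Fancd2 was at 9.56, 9.56 and 9.65 in Ctrl_R without Dox, above all −Dox arrays of the targeted clones. The difference was −0.73 ± 0.08 in Ppm1g_R (SE, limma adjusted p = 3.87e-08), −0.62 ± 0.08 in Ppp2r1b_R (limma adjusted p = 4.99e-07) and −0.55 ± 0.08 on the arrays labelled Chek1_R (limma adjusted p = 3.1e-06), where it did not reach 1.5-fold. In Bub1b_R it was −0.17 (adjusted p = 0.0816). The lower level was already there with Dox in the same 3 clones, at −0.39 (adjusted p = 0.000225) in Ppm1g_R, −0.60 (adjusted p = 1.02e-06) in Ppp2r1b_R and −0.31 (adjusted p = 0.00285) on the arrays labelled Chek1_R. The Ppp2r1b_R difference with Dox was −0.54 without Ppp2r1b_R +Dox replicate 3 and −0.53 without Ctrl_R +Dox replicate 2, both under the fold limit. Across the 10 conditions the mean ran from 8.86 in Ppm1g_R without Dox to 9.68 in Ctrl_R with Dox, and 2 of the 9 steps between neighbours in that order did not overlap.

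Rad54l was at 10.30, 10.36 and 10.30 in Ctrl_R without Dox and at 9.62, 9.64 and 9.75 in Ppp2r1b_R, which did not overlap. The difference was −0.65 ± 0.09 (SE, limma adjusted p = 8.29e-07), and it was −0.45 (adjusted p = 0.000113) with Dox. Without Dox the difference was −0.34 (adjusted p = 0.0017) in Ppm1g_R, −0.25 (adjusted p = 0.0189) on the arrays labelled Chek1_R and 0.00 (adjusted p = 0.995) in Bub1b_R. The Chek1_R difference was lost without Chek1_R −Dox replicate 1 (adjusted p = 0.0634) or 2 (0.0929), without Ctrl_R −Dox replicate 2 (0.0605) and under median scaling (−0.11, adjusted p = 0.406). With Dox Bub1b_R lay above Ctrl_R by 0.29 (adjusted p = 0.0108), and the adjusted p was 0.0505 without Bub1b_R +Dox replicate 3.

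Brca2 differed from Ctrl_R without Dox in Ppp2r1b_R, where all 3 arrays (8.14, 8.48 and 8.20) lay below those of Ctrl_R (8.86, 8.82 and 8.72). The difference was −0.53 ± 0.08 for the brightest probe (SE, limma adjusted p = 3.03e-06), under the fold limit, and −0.70 ± 0.12 for the second (limma adjusted p = 2.2e-05), past it. In the other clones the brightest probe differed by 0.07, −0.03 and −0.04, none past the threshold. With Dox it was higher in Bub1b_R by 0.28 (adjusted p = 0.00652) and on the arrays labelled Chek1_R by 0.20 (adjusted p = 0.0446), and in Ppp2r1b_R it differed by −0.12. The Chek1_R difference was lost with the mean of both probes (0.04, adjusted p = 0.722) and without Chek1_R +Dox replicate 1 (0.193) or 3 (0.112) or Ctrl_R +Dox replicate 2 (0.168) or 3 (0.0939).

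Xrcc2 was at 7.82, 8.17 and 7.62 in Ctrl_R without Dox. It was at 7.45, 7.22 and 7.29 in Bub1b_R, 7.00, 7.34 and 7.35 on the arrays labelled Chek1_R, 7.08, 7.14 and 7.59 in Ppm1g_R, and 6.95, 7.41 and 7.23 in Ppp2r1b_R. None of these arrays reached the lowest Ctrl_R array. The differences were −0.55 (adjusted p = 0.00297), −0.64 (0.000617), −0.60 (0.00101) and −0.67 (0.00033) in that order, each with an SE of 0.15. They rested in part on Ctrl_R −Dox replicate 2, the highest array: without it they were −0.40, −0.50, −0.45 and −0.53, all under the fold limit. By the brightest probe only Ppp2r1b_R passed against Ctrl_R with Dox, at −0.37 (adjusted p = 0.0329). This call was lost without Ppp2r1b_R +Dox replicate 1 (−0.25, adjusted p = 0.187) or Ctrl_R +Dox replicate 1 (0.0552) or 3 (0.125). The second Xrcc2 probe gave smaller differences without Dox, from −0.14 (adjusted p = 0.24) in Bub1b_R to −0.42 (adjusted p = 0.000917) in Ppp2r1b_R.

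Blm was at 11.83, 11.80 and 11.85 in Ctrl_R without Dox and at 11.38, 11.43 and 11.40 in Bub1b_R, with no overlap. The difference was −0.42 ± 0.07 (SE, limma adjusted p = 8.83e-06). In Ppm1g_R it was −0.23, in Ppp2r1b_R −0.33 and on the arrays labelled Chek1_R −0.34, with adjusted p of 0.00487, 0.000154 and 0.000125, none past the fold limit. Median scaling ended the calls in Bub1b_R (−0.19, adjusted p = 0.18) and on the arrays labelled Chek1_R (−0.24, adjusted p = 0.0742). The second probe reached the fold limit on the arrays labelled Chek1_R, at 11.04, 10.96 and 10.94 against 11.65, 11.66 and 11.57 in Ctrl_R (−0.64). The third, dim probe was detected on all 6 Ctrl_R arrays and on 2 of the Bub1b_R +Dox arrays. It was not well above background on any other array, so that its levels there are only bounded. Without Dox it was at least 1.81-fold lower in Bub1b_R than in Ctrl_R, at least 1.66-fold lower on the arrays labelled Chek1_R, at least 1.57-fold in Ppm1g_R and at least 1.60-fold in Ppp2r1b_R. The adjusted p-values of the fitted differences were 2.3e-05, 2.79e-06, 1.71e-06 and 9.54e-05. These bounds set the mean of the brighter group against the lowest detected signal on each dimmer array. With Dox the brightest probe passed against Ctrl_R only in Bub1b_R, at −0.27 (adjusted p = 0.00236), and median scaling took this to −0.11 (adjusted p = 0.502). The other Blm probes were lower with Dox in all 4 targeted clones. The second differed by −0.23 in Bub1b_R, −0.46 in Ppm1g_R, −0.26 in Ppp2r1b_R and −0.32 on the arrays labelled Chek1_R, all past the adjusted p and with no array overlapping Ctrl_R. The third was at least 1.45-fold lower on the arrays labelled Chek1_R, at least 1.42-fold in Ppm1g_R and at least 1.3-fold in Ppp2r1b_R, and in Bub1b_R the fitted difference was −0.63 (adjusted p = 0.00217).

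Brca1 went the other way. It was at 5.76, 5.15 and 6.04 in Ctrl_R without Dox, detected on 2 of 3 arrays, and at 6.89, 6.58 and 6.57 in Ppm1g_R and 6.12, 6.43 and 6.54 in Ppp2r1b_R, detected on all 3 of each. Both clones lay above every Ctrl_R array. The differences were +1.03 ± 0.25 (SE, limma adjusted p = 0.000971) and +0.71 ± 0.25 (limma adjusted p = 0.0159), and with Dox +1.28 (adjusted p = 0.000117) and +1.11 (adjusted p = 0.000551). On the arrays labelled Chek1_R the difference was +0.46 (adjusted p = 0.12) without and +0.69 (adjusted p = 0.0268) with Dox, and in Bub1b_R it was −0.33 (adjusted p = 0.296) and −0.47 (adjusted p = 0.149). The higher clones are those of the array set with the higher lowest detected signal, and for a probe this dim that set and the clones cannot be told apart. The Ppm1g_R differences were kept on leaving out any array, at 0.78 to 1.23 without and 1.09 to 1.42 with Dox, but without background correction they were larger, at +1.52 and +1.89, with adjusted p of 0.120 and 0.0584. That setting also ended the calls in Ppp2r1b_R (adjusted p = 0.245 without and 0.0899 with Dox) and on the arrays labelled Chek1_R with Dox (0.267). The Ppp2r1b_R difference without Dox was lost without Ctrl_R −Dox replicate 2 (+0.46, adjusted p = 0.131) or without Ppp2r1b_R −Dox replicate 3 (adjusted p = 0.0606). The Chek1_R difference with Dox was lost without Chek1_R +Dox replicate 1 (adjusted p = 0.0753) or 2 (0.0672), or without Ctrl_R +Dox replicate 3 (0.147).

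Exo1, a 5′ to 3′ exonuclease of resection, was likewise dim. It was at 5.87, 6.15 and 5.92 in Ctrl_R without Dox, all detected, and at 5.34, 5.06 and 5.66 in Ppp2r1b_R, of which 1 was detected. The groups did not overlap, and the difference was −0.63 ± 0.16 (SE, limma adjusted p = 0.0016). With Dox it was −0.52 (adjusted p = 0.00837), and −0.38 (adjusted p = 0.0662) without Ppp2r1b_R +Dox replicate 1. In both conditions the Ppp2r1b_R values lie at background on 2 of 3 arrays. In the other clones without Dox Exo1 differed by 0.18, −0.23 and −0.33, none past the threshold. Without Ctrl_R −Dox replicate 2 the Ppp2r1b_R difference was −0.55, under the fold limit, and 2 genes rather than 5 were then called in Ppp2r1b_R.

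Mre11a, the nuclease of the MRE11A complex, was at 10.15, 10.12 and 10.26 in Ctrl_R without Dox, below all −Dox arrays of the targeted clones. They were at 10.30, 10.43 and 10.43 in Bub1b_R, 10.42, 10.66 and 10.59 on the arrays labelled Chek1_R, 10.41, 10.58 and 10.50 in Ppm1g_R, and 10.33, 10.38 and 10.38 in Ppp2r1b_R. The differences were +0.21 (adjusted p = 0.011), +0.38 (3.46e-05), +0.32 (0.000212) and +0.19 (0.018), none past the fold limit. With Dox they were +0.30, +0.43, +0.33 and +0.29, all past the adjusted p. The Ppp2r1b_R difference without Dox was lost without Ctrl_R −Dox replicate 1 (adjusted p = 0.0552) or 2 (0.0722), and median scaling took it to −0.060 and the one with Dox to 0.05. Without Dox the other Mre11a probes did not share this direction, apart from the second in Bub1b_R. The second probe differed by +0.27, −0.01, −0.42 and −0.43 in the same order of clones, and the third by −0.22, −0.31, −0.29 and −0.64. Averaging the 3 probes turned the sign in Ppm1g_R (−0.13) and Ppp2r1b_R (−0.29), and with Dox as well (−0.057 and −0.27). Without Dox it also ended the limma calls in Bub1b_R (0.09, adjusted p = 0.231) and on the arrays labelled Chek1_R (0.02, adjusted p = 0.806). With Dox it ended the one on the arrays labelled Chek1_R (0.10, adjusted p = 0.180). The direction of Mre11a without Dox thus depended on the probe in every targeted clone. In Brca2, Blm and Xrcc2 the probes of Ppp2r1b_R had the same sign.

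**Figure D4:**
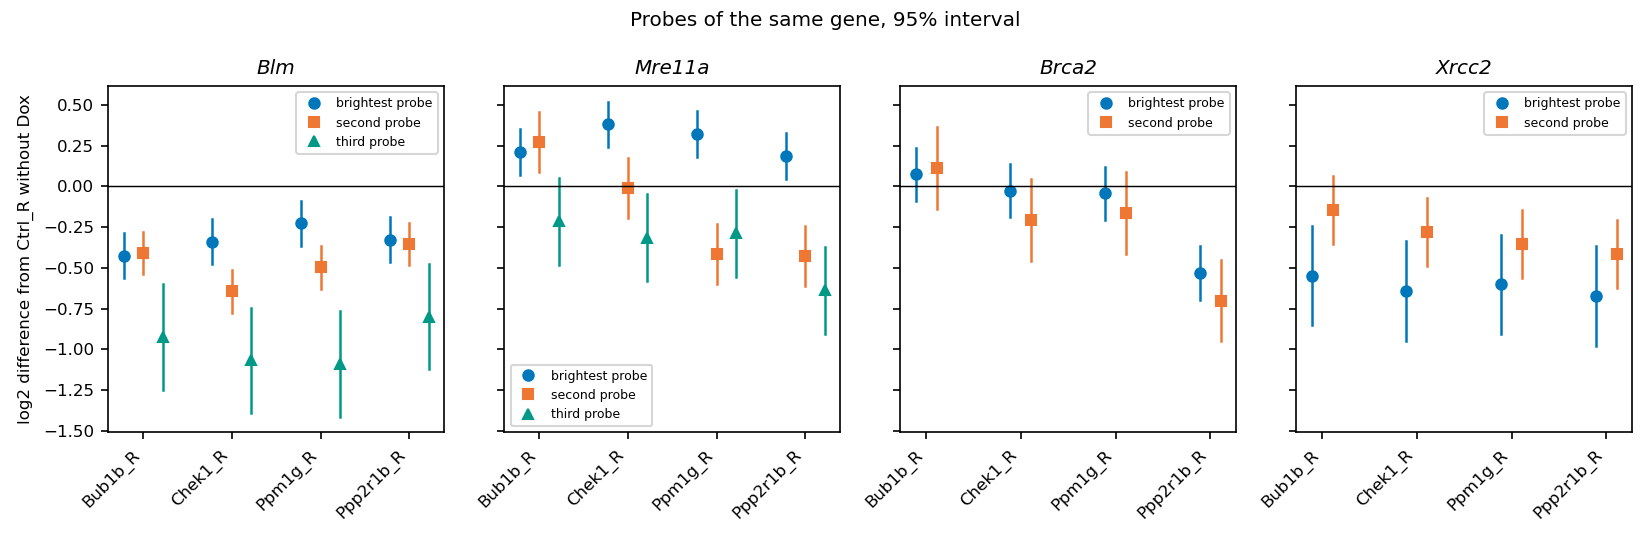
Difference from Ctrl_R without Dox (log2, with 95% intervals) of each tested probe of Blm, Mre11a, Brca2 and Xrcc2 in the 4 targeted clones. Probes are ordered by brightness, and the third Blm probe, not detected on the −Dox arrays of the targeted clones, is drawn at its fitted difference. The Mre11a probes lie on both sides of zero in every targeted clone, and those of Blm all lie below it.

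With Dox, the rescued clones also differed from Ctrl_R in some of these genes. The counts with the fold limit were 0 in Bub1b_R, 1 higher in Chek1_R, 1 higher in Ppm1g_R, and 1 higher and 1 lower in Ppp2r1b_R, beside 12.7%, 17.6%, 29.1% and 28.3% of all probes. At an adjusted p alone, 3 were higher and 1 lower in Bub1b_R, 3 and 1 in Chek1_R, 2 and 1 in Ppm1g_R, and 2 and 4 in Ppp2r1b_R, against 39.9%, 49.6%, 61.7% and 61.3% of all probes. For Bub1b_R, 4 of 8 passed an unadjusted p under 0.05. Mre11a was higher in all 4 clones by its brightest probe, though lower in Ppm1g_R and Ppp2r1b_R by the mean of its probes, Brca1 was higher in the clones labelled Chek1_R, Ppm1g_R and Ppp2r1b_R, and Fancd2 was lower in these 3. These also share their array set.

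Within that array set the clones could be compared with each other. By their brightest probes, Ppp2r1b_R had less Brca2 and Rad54l than Ppm1g_R and the arrays labelled Chek1_R, with and without Dox. The second Brca2 probe did not share this with Dox, where its means were 7.45 in Ppp2r1b_R, 7.45 in Chek1_R and 7.29 in Ppm1g_R. Its means without Dox were 7.08, 7.57 and 7.62 in that order. Without Dox Brca2 was lower in Ppp2r1b_R than on the arrays labelled Chek1_R (8.80, 8.72 and 8.81) by a difference of 0.50 (limma adjusted p = 1.45e-05) and than in Ppm1g_R (8.87, 8.73 and 8.67) by 0.49 (adjusted p = 1.51e-05). For Rad54l the differences were 0.40 (adjusted p = 0.00068) and 0.31 (adjusted p = 0.00556). In all 4 of these no arrays overlapped. Exo1 and Mre11a were also lower than on the arrays labelled Chek1_R, by 0.40 (adjusted p = 0.046) and 0.19 (adjusted p = 0.0215). With Dox the differences from the arrays labelled Chek1_R and from Ppm1g_R were 0.32 and 0.27 for Brca2, 0.56 and 0.46 for Rad54l, and 0.29 and 0.21 for Fancd2, all past the adjusted p. Between the arrays labelled Chek1_R and Ppm1g_R 0 of 8 genes passed limma's adjusted p in either condition, where 2 passed an unadjusted p under 0.05 without Dox and 1 with it. Of all probes, 31.2% passed for Chek1_R against Ppm1g_R without Dox and 34.5% with it, 45.8% and 34.0% for Chek1_R against Ppp2r1b_R, and 50.9% and 42.5% for Ppm1g_R against Ppp2r1b_R. In the −Dox arrays of Ppp2r1b_R the summed ESC markers were at 13.08 to 13.20, against 13.59 to 13.74 on the arrays labelled Chek1_R, and the summed feeder markers at 10.72 to 10.80, against 10.21 to 10.33. Of 10 feeder markers, 3 were detected on none of these Ppp2r1b_R arrays. The part of these markers in the lower repair genes was not tested.

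By their spread over conditions the genes differed in how firmly their levels can be ordered. Brca1 spanned 1.75 on the log2 scale from Bub1b_R to Ppm1g_R with Dox, but the low end was detected on 1 of 3 arrays, and none of the 9 steps between neighbouring conditions was free of overlap. The same held for Exo1 (span 0.85) and Xrcc2 (0.68). Rad54l spanned 0.83, Brca2 0.62, Mre11a 0.43 and Blm 0.42, each with 1 step free of overlap. Brca2 and Rad54l were both lowest in Ppp2r1b_R without Dox and highest in Bub1b_R with Dox. Over the 10 condition means their levels had a Pearson r of 0.870, Rad54l and Exo1 one of 0.929, and Fancd2 and Exo1 one of 0.828. Brca1 ran against Exo1 (−0.841) and Fancd2 (−0.764). These points share arrays and their normalization and are given as a description. The genes most like the mean of the repair genes over the 10 conditions were Zfp57 (r = 0.920), Pi4ka (0.919), Masp2 (0.919), Nqo2 (0.918) and Dppa4 (0.917). They are the highest of all tested probes outside the repair genes. The repair genes themselves followed that mean less closely, with r of −0.15 for Brca1, 0.04 for Mre11a and 0.44 for Blm, up to 0.79 for Rad54l.

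The rest of the pathway was read from lists of further genes. Of 25 tested homologous recombination genes outside the 8, 11 were lower and 1 higher in the pooled change at an adjusted p under 0.05, with a median of −0.11. Of 9 further Fanconi genes 6 were lower and 0 higher, with a median of −0.13, and neither list had a gene past the fold limit. The background of 46.4% at that p holds here too. Rad51c, which acts in the same step as Xrcc2, fell by 0.44 ± 0.04 on the log2 scale (SE, limma adjusted p = 1.83e-09), with changes of −0.52, −0.57, −0.45 and −0.23 in Bub1b_R, Chek1_R, Ppm1g_R and Ppp2r1b_R and −0.09 in Ctrl_R. Rad54b, a relative of Rad54l, fell by 0.30 (adjusted p = 1.35e-09). The helicase gene Helq fell by 0.25 in the pool (adjusted p = 0.0109), of which −0.68 in Ppp2r1b_R alone was called. Among the Fanconi genes, Ube2t, the conjugating enzyme for FANCD2, fell by 0.44 (adjusted p = 0.000236) and was called in Bub1b_R (−0.78) and Ppm1g_R (−0.67), beside +0.11 in Ppp2r1b_R. Fanci, the partner of FANCD2, fell by 0.30 (adjusted p = 7.26e-07), with −0.21 or lower in each targeted clone and 0.03 in Ctrl_R, and the core complex gene Fancc fell by 0.22 (adjusted p = 0.0264).

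Compared with Ctrl_R without Dox, 3, 5, 9 and 10 of the 25 homologous recombination genes were called lower in Bub1b_R, Chek1_R, Ppm1g_R and Ppp2r1b_R, and 1, 2, 0 and 1 higher, beside 22.6%, 28.8%, 33.5% and 33.7% of all probes called in either direction. Of the 9 Fanconi genes 2, 1, 1 and 2 were called lower and 0, 2, 1 and 1 higher. Rad51ap1 had the greatest mean difference of the recombination list, at −1.03, and was called lower in all 4 clones. Rad54b followed at −0.84 and Rad51c at −0.82. Of the Fanconi list, Fancc was at −0.72 and Fanci at −0.54. Usp1, which removes ubiquitin from FANCD2, was at +0.48, with −0.07 in Bub1b_R and 0.60, 0.94 and 0.44 in the other clones.

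Other lists gave the setting for these values. Of 6 tested end joining genes 2 were lower in the pool at an adjusted p under 0.05, Xrcc6 (−0.25) and Dclre1c (−0.21), while Prkdc stood at 0.07 (adjusted p = 0.379). Of 18 S phase genes 8 were lower and 3 higher, with a median of −0.07. Ccne2 was the 1 called higher, at +0.83 (adjusted p = 6e-09), and it was called in Ctrl_R as well (+0.65, adjusted p = 0.0125). Cdt1 was at −0.27 and Cdc45 at −0.23. Of 8 mitosis genes limma called 0 and 0 passed the adjusted p alone, with a median of −0.02, Top2a at −0.08 (adjusted p = 0.0574), Kif11 at −0.07 and Ccna2 at 0.04. In Ppp2r1b_R without Dox the summed S phase genes were at 15.01 to 15.04, against 15.34 to 15.40 in Ctrl_R, and the summed mitosis genes at 14.66 to 14.70, against 14.55 to 14.60. The part of S phase content in the lower repair genes of Ppp2r1b_R was not tested.

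**Figure D5:**
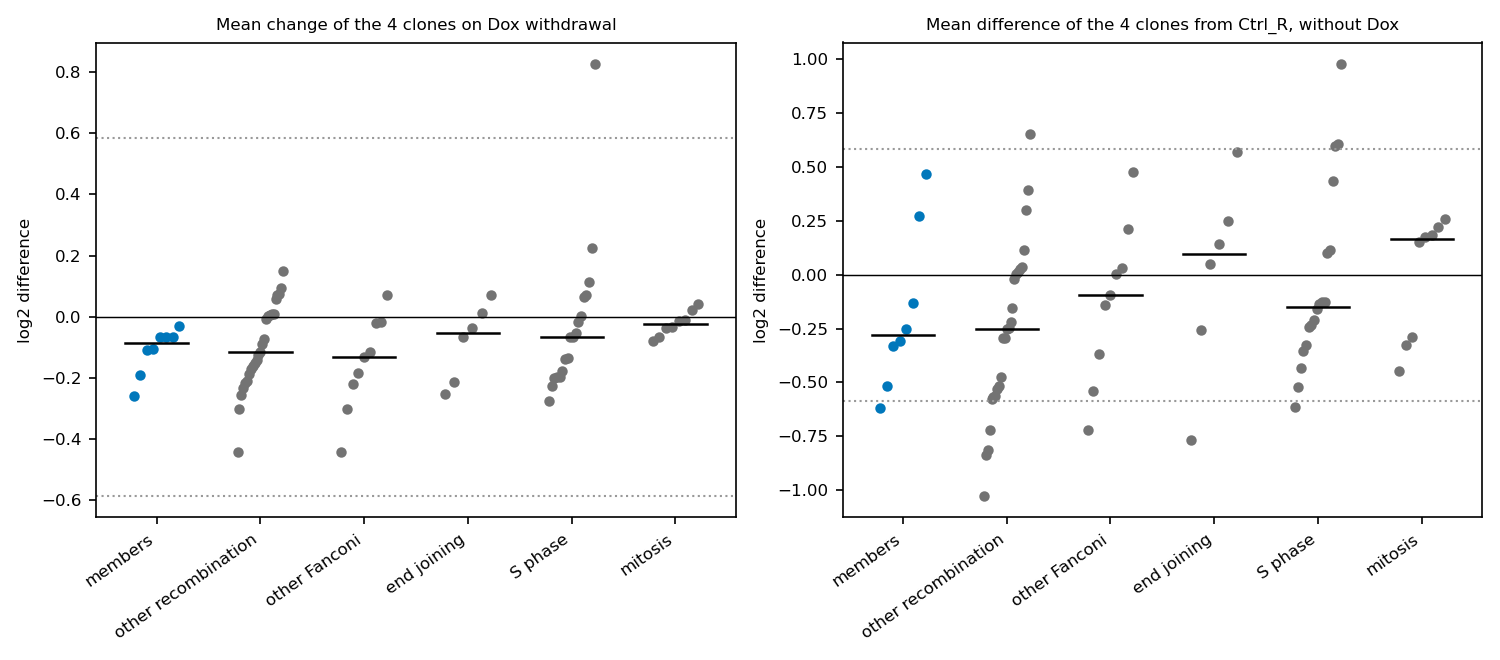
Pooled change on Dox withdrawal (left) and mean difference of the 4 targeted clones from Ctrl_R without Dox (right), both log2, for the 8 repair genes and for lists of other recombination, other Fanconi, end joining, S phase and mitosis genes. Points are genes (the 8 in blue, under members), bars are list medians and dotted lines mark 1.5-fold. The medians on the left lie between −0.13 and −0.02, and Ccne2, at 0.83, stands apart.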

How the data were processed

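The authors deposited, for 25697 probes on 30 arrays, background-corrected signal intensities that had not been normalized across arrays, and beside each a detection p-value. The submitters' processing notes name lumi. The normalization and threshold behind the study's own lists are not given in the sources used here. Detection p cells that held spreadsheet dates were converted back or took the value of the nearest signal, and 0 of them belong to the repair genes. No array pair held identical values (0), and arrays of a condition correlated at 0.990 to 0.997.

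Intensities were normalized in R 4.3.3 with limma 3.58.1 (neqc: background from detection p-values, offset 16, quantiles, log2). Kept were 15151 probes that at least 3 arrays detected (p below 0.05). A single limma fit took a mean for each of 10 conditions, with 20 residual degrees of freedom (prior 3.38). The contrasts taken were −Dox minus +Dox per clone, the same minus Ctrl_R, each clone against Ctrl_R, the mean of 4 clones, pairs of clones and an F-test among clones. An array pair sets 1 array of each condition against the other, which gives 9 per comparison. Summed levels are log2 of sums of unlogged values. statmod 1.5.0 was also used. The code was tested on simulated data.

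The members and the gene lists were chosen with earlier results of these data known. The text names the members, the targeted genes, the 3 genes of the recombination and Fanconi lists with the largest pooled change and with the largest mean difference from Ctrl_R, up to 3 of each other list, and the 5 genes most like the members' mean. Promoter sequences are from RefSeq (GRCm38.p6). Alternatives were leaving out background correction (with 1 as the lowest signal), median scaling, an offset of 50, quantiles within each clone, a stricter filter (all 3 arrays of some condition detected at p below 0.01, 12372 probes) or none, the arrays compared alone, replicate numbers as a block, a 2-fold limit, no fold limit, the methods' t-test, the mean of a gene's probes, leaving out the arrays labelled Chek1_R, and leaving out each array.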

Additional observations from a re-analysis of the deposited data

Results flagged for a closer look

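Tests of a difference from the change in Ctrl_R passed for Rad54l, Blm and Brca2. On the arrays labelled Chek1_R, withdrawal changed the level beyond the change in Ctrl_R by −0.36 for Rad54l, −0.308 for the brightest Blm probe and −0.321 for the second Blm probe (log2). In Ppp2r1b_R the same quantity was −0.408 for the brightest Brca2 probe and −0.581 for the second. For the second Brca2 probe the change also differed among the 4 targeted clones (F-test of limma, adjusted p = 0.0183). That F-test did not pass for the brightest Brca2 probe (adjusted p = 0.367) or Rad54l (0.681). Nor did it for the brightest (0.315) and second (0.0814) Blm probes. Under median scaling the differences from Ctrl_R of the brightest probes no longer passed, at −0.27 for Rad54l (adjusted p = 0.278), −0.20 for Blm (0.511) and −0.40 for Brca2 (0.122).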

How the results depend on the processing

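Of 48 differences of single genes past the adjusted p, other settings gave 529 values, of which 472 kept direction and side of the threshold, 52 no longer passed and 5 turned sign. The 472 include 48 values under the 2-fold limit and 48 with no fold limit. These could not change, since only the fold limit differed there and single values were judged by sign and adjusted p. The turned ones were all Mre11a against Ctrl_R: with the mean of all probes −0.13 (Ppm1g_R) and −0.29 (Ppp2r1b_R) without Dox and −0.057 and −0.27 with Dox, and with median scaling −0.060 (Ppp2r1b_R without Dox). The number of genes called moved by more than 1.5 times, or from or to 0, in 33 of 199 counts. Without background correction it was 1 for withdrawal in Bub1b_R, 1 for Bub1b_R against Ctrl_R in either Dox condition, and 0 for Chek1_R and 0 for Ppm1g_R with Dox. The mean of all probes gave 1 for Bub1b_R without Dox, and median scaling 0 for Chek1_R without Dox. An offset of 50 gave 0 for Chek1_R and 1 for Ppp2r1b_R in either Dox condition. A 2-fold limit gave, without Dox, 0 for Chek1_R, 1 for Ppm1g_R and 0 for Ppp2r1b_R, and with Dox 0 for Chek1_R and 1 for Ppp2r1b_R. With no fold limit, the counts were 2, 1 and 1 for withdrawal in Chek1_R, Ppm1g_R and Ppp2r1b_R, 2 and 1 for the change minus Ctrl_R in Chek1_R and Ppp2r1b_R, 3, 5, 6 and 8 against Ctrl_R without Dox in Bub1b_R, Chek1_R, Ppm1g_R and Ppp2r1b_R, 4, 4, 3 and 6 with Dox, and 2 in the pool. The methods' t-test after Benjamini-Hochberg adjustment gave, with the fold limit, 0 for Chek1_R, 2 for Ppm1g_R and 2 for Ppp2r1b_R without Dox and, with Dox, 0 for Chek1_R and 2 for Ppp2r1b_R, the same number as the limma fit there. Without adjustment it passed 2, 1, 1, 0 and 2 genes for withdrawal in Bub1b_R, Chek1_R, Ppm1g_R, Ppp2r1b_R and Ctrl_R, and with adjustment 0 in each. The cause was not tested. Leaving out 1 array gave 0 to 1 for the change minus Ctrl_R in Chek1_R, where the 1 came without Ctrl_R −Dox replicate 3. Against Ctrl_R without Dox it gave 0 to 1 in Bub1b_R, 0 to 2 in Chek1_R, 2 to 3 in Ppm1g_R and 2 to 5 in Ppp2r1b_R, and with Dox 0 to 1, 0 to 1, 1 to 1 and 1 to 3. All other counts with an array left out were 0. Where an array is left out, its condition keeps 2 arrays. Median scaling moved the median of all probes by 0.11 for Bub1b_R and −0.14 for Ppp2r1b_R without Dox and by −0.14 for Ppp2r1b_R with Dox. The replicate numbers did not pair the samples: of 15 pairs of same-numbered arrays 1 correlated over 0.1 (r from −0.08 to 0.13), and 6 correlated best with their own number. With the replicate number as a block, 18 of 18 counts stayed and 3 single values no longer passed (adjusted p = 0.0598 for Brca2 withdrawal in Ppp2r1b_R, 0.0596 for Rad54l in Chek1_R minus Ctrl_R and 0.0550 for Brca2 in Chek1_R with Dox). Low signal limits Brca1 and Exo1, each detected on 23 of 30 arrays.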
